A study of Homo sapiens with 10 samples.

Results

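F-box genes encode the substrate-recognizing subunits of SCF ubiquitin ligases, and they were examined here in MEG-01 cells transfected with miR-1225-3p. The members were genes named FBXO, FBXL or FBXW followed by a number alone, among probes whose RefSeq accession matched a gene symbol. The family was chosen by the measured values of FBXO34, which was among the genes that fell furthest in this same contrast, so its fall is given as a description without a test. The arrays carried probes for 57 such genes (33 FBXO, 16 FBXL and 8 FBXW) among 35267 genes in all. Of these, 40 had a probe that passed the detection filter and were tested among 17379 genes. By this rule every member had a matched gene symbol, as had 11995 of the 17379. In both totals, probes without a matched symbol were counted as genes under their identifier on the array, so the shares over all genes include them.

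MEG-01 is an established human megakaryoblastic leukemia cell line, and megakaryocytes are the cells that shed platelets. Cells were nucleofected with 200 nM of a precursor of miR-1225-3p (5 arrays) or with the same dose of a scrambled precursor that served as negative control (5 arrays), and RNA was taken after 24 hours. The labels call the 5 samples of each group biological replicates from independent experiments, all of 1 cell line. One label describes the scrambled cells as having no treatment, whereas the titles and protocol describe transfection with the negative control. RNA was hybridized to 1-colour Agilent arrays, and levels are given as log2 normalized signal, which can be compared between arrays for a gene but not between genes.

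In an SCF ligase, the cullin CUL1 holds the RING protein RBX1 and a ubiquitin-conjugating enzyme at one end and the adaptor SKP1 at the other. The F-box motif binds SKP1, and the rest of the protein binds the substrate, through WD40 repeats in FBXW proteins, leucine-rich repeats in FBXL proteins and diverse domains in FBXO proteins. Attachment of NEDD8 to CUL1 activates the ligase, and the COP9 signalosome removes it. Swapping of F-box proteins lets 1 core act on cyclins, transcription factors and signaling proteins.

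The transfected miRNA is shown first because its seed is the part that selects messages. RefSeq places it at chr16:2090195-2090216 (GRCh38.p14, minus strand), and the capitals mark the seed, bases 2 to 8.
miR-1225-3p: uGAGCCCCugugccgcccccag
Of its 22 bases, 17 are G or C. Among 2370 mature human miRNAs in the RefSeq table, 0 others carried the same seed. A message pairing with the whole seed would hold the letters GGGGCTC. Messages were not searched for these letters here.

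Some facts concern all arrays. Replicate 5 of miR-1225-3p lay among the scrambled arrays on the first principal component (56.74, against 48.65 to 79.87 for scrambled and -133.4 to -52.98 for the other miR-1225-3p arrays), a component with 69.64% of the variance. Each slide held arrays of both groups. Of 12 megakaryocyte markers, 9 were measured, of which 3 were lower with miR-1225-3p (ITGA2B, the platelet integrin alpha IIb, FLI1 and NFE2) and 0 higher, while PF4 had no probe past the filter. Their summed normalized signal was 7697 to 9364 on miR-1225-3p arrays and 10921 to 12480 on scrambled arrays. Such a sum follows its brightest genes, here mostly NFE2 (mean log2 signal 12.39 with miR-1225-3p and 12.82 with scrambled). Of 9 measured markers of T cells, B cells, monocytes, fibroblasts and epithelium, CD3E, FCGR3A and EPCAM were higher and 0 were lower (CD3E entered the test through the miR-1225-3p arrays alone), and CD3G, CD2 and MS4A1 had no probe past the filter, although CD3D was above background on all 10 arrays. The summed signal of these 9 was 9208 to 12396 with miR-1225-3p and 8290 to 14004 with scrambled, and it rests mostly on EPCAM, CD3D and CD79A. CD79A had a log2 difference of -1.47 (SE 0.56) and was not called (adjusted p = 0.0626). The part of these shifts in the F-box results was not tested. In bulk RNA, fewer cells of a kind and less RNA per cell cannot be told apart.

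Of the 40 F-box genes tested, 9 were called at an adjusted p under 0.05 (22.5%), against 35.0% of all genes tested. The calls included FBXO34, and 8 of the other 39 were called. FBXO4, FBXL20, FBXO32 and FBXO3 were higher (4 genes, where 17.0% of all genes were higher), and FBXO34, FBXW4, FBXW2, FBXW5 and FBXO30 were lower (5 genes, where 18.1% of all genes were lower). The share called was thus no larger among F-box genes than in the whole table. Leaving FBXO34 aside, FBXW4, FBXL20 and FBXO4 passed both the test and a fold over 2 (3 of 39, against 17.4% of all genes). With the normexp background correction their log2 differences were -0.51, 0.46 and 0.44, all under 2-fold. That correction adds an offset of 50 to the signal, which by itself makes differences of dim genes smaller. The 2 groups of arrays did not overlap for FBXO30, FBXO31 and FBXL20 (3 of 39, against 12.7% of all genes), nor for FBXO34. The median log2 fold change was 0.09 over members and -0.06 over all genes tested.

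**Figure D1:**
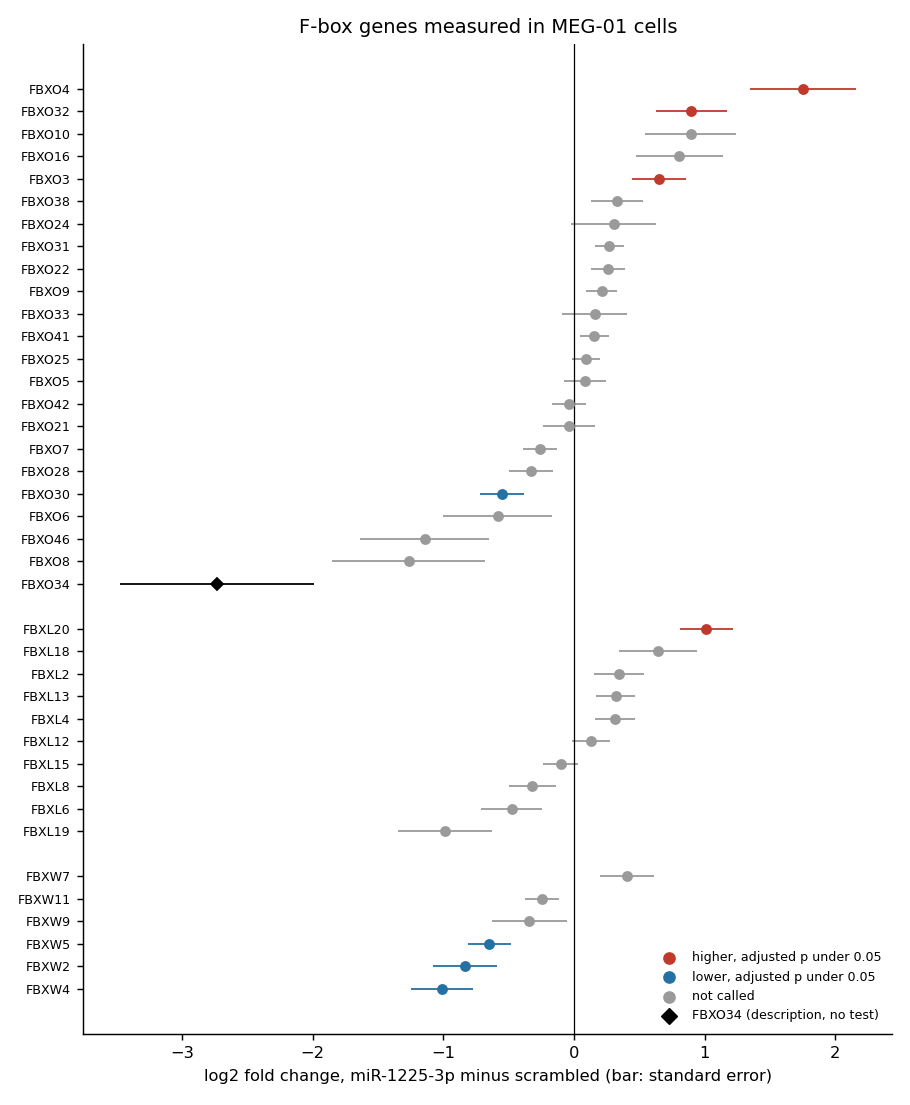
Log2 fold change (miR-1225-3p minus scrambled, x axis) of 39 of the 40 F-box genes tested, grouped as FBXO, FBXL and FBXW, with the standard error as bars (n = 5 arrays per group). Points are coloured by call at an adjusted p under 0.05, and FBXO34 (black diamond, no test) lies furthest to the left at -2.73.

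By class, FBXO genes gave 5 calls of 23 (3 higher, 2 lower, with FBXO34 among the lower), and FBXL genes gave 1 of 11 (higher). FBXW genes gave 3 of 6, all lower, where 18.1% of all genes were lower. The shares called were 21.7%, 9.09% and 50%, against 35.0% of all genes tested, and the FBXW class holds only 6 tested genes. The median log2 fold change was 0.15 over FBXO, 0.13 over FBXL and -0.50 over FBXW genes, and 5 of the 6 FBXW genes had a value below 0. No test of the difference between classes was run. The 17 genes without a probe past the filter were FBXL7, FBXL14, FBXL16, FBXL17, FBXL22, FBXO2, FBXO15, FBXO17, FBXO27, FBXO36, FBXO39, FBXO40, FBXO44, FBXO47, FBXO48, FBXW8 and FBXW12. Of the 40 tested, 37 passed through both groups, and 31 were well above background on all 10 arrays. Over these 31, 6 were called (19.4%, FBXO34 included) and the median was -0.04. In a fit confined to probes well above background on all 10 arrays, 7 of the 31 were called, against 4697 of 12048 genes. The median over all genes in that fit was -0.03. FBXO4 and FBXO16 passed through the miR-1225-3p arrays alone and FBXO6 through the scrambled arrays alone, so their entry into the test depended on the group in which they were high. Of the 37, 8 were called (21.6%, FBXO34 included), again against 35.0% of all genes tested. That total also includes genes that passed through 1 group alone.

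FBXO34, an F-box protein with neither WD40 nor leucine-rich repeats, was detected on all 10 arrays by its single probe. Its log2 signal was 8.73, 7.27, 5.76, 4.97 and 9.25 on miR-1225-3p replicates 1 to 5, and 10.00, 10.17, 10.06, 9.94 and 9.48 on scrambled replicates 1 to 5. The highest miR-1225-3p array (replicate 5) lay below the lowest scrambled array (also replicate 5), so the groups did not overlap. The scrambled arrays lay close together (SD 0.26), and the miR-1225-3p arrays were spread widely (SD 1.84). The difference of the means was -2.73 on the log2 scale (SE 0.74), which is 6.65-fold. The difference was -1.85 among the arrays of slide 1 and -3.40 among those of slide 2, and it ranged from -3.25 to -2.18 when any 1 array was left out. With the normexp background correction in place of the scanner's, it was -1.88.

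FBXO8, which carries a Sec7 domain of the kind that activates ARF GTPases, and FBXO46, listed in RefSeq also under the synonym FBXO34L, had the next largest falls by the mean, and neither was called. FBXO8 had log2 signals of 8.18, 7.33, 5.83, 4.85 and 8.07 with miR-1225-3p and 8.02, 8.28, 8.08, 8.21 and 8.01 with scrambled. Replicates 1 and 5 were at the level of the scrambled arrays, and replicates 2, 3 and 4 lay below all of them. The log2 difference was -1.27 (SE 0.58, adjusted p = 0.108). FBXO46 had log2 signals of 9.495, 8.813, 7.733, 6.546 and 9.181 with miR-1225-3p and 9.656, 9.688, 9.389, 9.564 and 9.189 with scrambled, a log2 difference of -1.14 (SE 0.49, adjusted p = 0.0897). Here too replicates 2, 3 and 4 lay below all scrambled arrays, with replicate 4 the lowest, and replicate 5 was just under the lowest scrambled array. Both were called when replicate 5 of miR-1225-3p was left out (-1.57, adjusted p = 0.0431 for FBXO8, and -1.35, adjusted p = 0.0474 for FBXO46). Without replicate 4 the differences were -0.77 (adjusted p = 0.195) and -0.69 (adjusted p = 0.132), and within slide 1 they were -0.28 and -0.26.

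The 3 genes thus ordered the miR-1225-3p arrays alike, with replicate 4 lowest, then 3, then 2, and replicates 1 and 5 on top. FBXW4 and FBXW9 had the same order, which makes 5 of the 40 members. The order was found in 11.1% of all genes tested and in 29.5% of the 2657 genes with a log2 fold change below -1. The SD was larger over the miR-1225-3p arrays than over the scrambled arrays for 33 of the 40 members and for 75.6% of all genes.

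**Figure D2:**
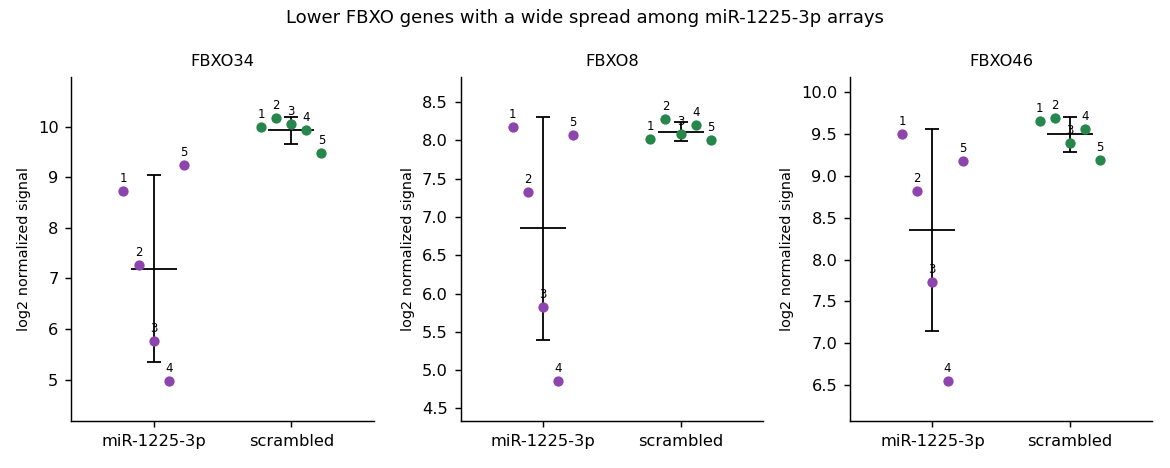
Log2 normalized signal (y axis) of FBXO34, FBXO8 and FBXO46 on each array, labelled by replicate number, with the mean and SD of each group (n = 5). The miR-1225-3p arrays are spread from replicate 4 at the bottom to replicates 1 and 5 at the top, and for FBXO34 even the highest, 9.25, lies below the lowest scrambled array, 9.48.

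The WD40-repeat genes FBXW4, FBXW2 and FBXW5 fell with miR-1225-3p. FBXW4 (dactylin, a gene of the split-hand/foot region) had log2 signals of 6.26, 6.23, 6.12, 5.95 and 7.17 with miR-1225-3p and 7.20, 7.43, 7.27, 7.11 and 7.79 with scrambled. Replicates 1 to 4 of miR-1225-3p lay below every scrambled array, and replicate 5 lay just above the lowest of them. FBXW4 fell by 1.01 on the log2 scale (SE 0.24, 2.02-fold, adjusted p = 0.0166), and the call held when any 1 array was left out. FBXW2, which targets the placental factor GCM1, had log2 signals of 5.60, 5.71, 5.21, 5.33 and 6.51 with miR-1225-3p and 6.30, 6.25, 6.80, 6.69 and 6.52 with scrambled. Again the first 4 replicates lay below all scrambled arrays and replicate 5 among them. FBXW2 fell by 0.84 (SE 0.24, adjusted p = 0.0280), and the call was lost (adjusted p 0.0528 to 0.0675) in fits that omitted any of miR-1225-3p replicates 1 to 4 or either of scrambled replicates 3 and 4. FBXW5, which recognizes the centriole protein SASS6 and the actin regulator EPS8, had log2 signals of 9.23, 9.14, 8.94, 8.94 and 9.70 with miR-1225-3p and 9.84, 9.77, 9.84, 9.67 and 10.07 with scrambled. The overlap again came from replicate 5 alone. FBXW5 fell by 0.65 (SE 0.17, adjusted p = 0.0205), with adjusted p = 0.0541 without miR-1225-3p replicate 2 and 0.0548 without replicate 3, and it was -0.30 (adjusted p = 0.126) with centring on the 75th percentile. With the normexp correction FBXW4 had -0.51 and FBXW2 -0.37, both still called. The log2 differences within slides 1 and 2 were -1.17 and -0.85 for FBXW4, -0.88 and -0.78 for FBXW2, and -0.73 and -0.53 for FBXW5.

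The other 3 FBXW genes were not called. FBXW7, which marks cyclin E, MYC and NOTCH for destruction, had log2 signals of 9.015, 8.759, 8.307, 8.085 and 7.950 with miR-1225-3p and 7.965, 8.068, 8.001, 8.073 and 7.982 with scrambled. Replicates 1, 2 and 3 stood above the scrambled arrays, replicate 4 only just, and replicate 5 below them all. The log2 difference was 0.41 (SE 0.20, adjusted p = 0.135). It was 0.90 on slide 1, which held miR-1225-3p replicates 1 and 2, and 0.04 on slide 2. Without replicate 5 it was 0.52 (adjusted p = 0.0366). FBXW11, the beta-TrCP paralog that recognizes phosphorylated beta-catenin and I-kappa-B, had a log2 difference of -0.25 (SE 0.13, adjusted p = 0.149), which was 0.21 when each array was centred on its 75th percentile. It was called lower on the authors' normalized values (-0.32, adjusted p = 0.0462) and with the normexp correction (-0.30, adjusted p = 0.0393).

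Promoter windows (250 bases before to 50 after the start of transcription, RefSeq, GRCh38.p14) are shown for FBXO34 and for the FBXW genes called lower. The capitals mark matches on either strand to 1 of 8 motifs searched. These were the CCAAT box, the ETS motif CCGGAAG, the E-box CACGTG, the TATA box TATAAA, the E2F motif TTTCGCGC, the GC box GGGCGGGG, the GATA motif AGATAA and the cAMP response element TGACGTCA. Windows were found for 28 of the 40 members (44 windows). FBXO34 has a second window (chr14:55271904-55272203) and FBXW4 another that overlaps the one shown.
FBXO34 (chr14:55271171-55271470, plus strand): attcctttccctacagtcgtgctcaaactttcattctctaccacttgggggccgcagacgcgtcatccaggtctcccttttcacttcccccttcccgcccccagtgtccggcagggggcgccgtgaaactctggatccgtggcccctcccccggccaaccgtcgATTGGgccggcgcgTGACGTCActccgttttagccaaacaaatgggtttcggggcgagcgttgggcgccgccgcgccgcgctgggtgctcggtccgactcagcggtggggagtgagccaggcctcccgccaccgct
FBXW4 (chr10:101695121-101695420, minus strand): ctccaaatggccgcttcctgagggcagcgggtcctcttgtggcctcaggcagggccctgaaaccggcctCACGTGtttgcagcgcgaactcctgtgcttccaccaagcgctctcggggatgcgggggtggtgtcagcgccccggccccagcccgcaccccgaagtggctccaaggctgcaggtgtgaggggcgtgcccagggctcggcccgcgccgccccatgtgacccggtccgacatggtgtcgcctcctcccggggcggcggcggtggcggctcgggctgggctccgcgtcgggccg
FBXW2 (chr9:120793367-120793666, minus strand): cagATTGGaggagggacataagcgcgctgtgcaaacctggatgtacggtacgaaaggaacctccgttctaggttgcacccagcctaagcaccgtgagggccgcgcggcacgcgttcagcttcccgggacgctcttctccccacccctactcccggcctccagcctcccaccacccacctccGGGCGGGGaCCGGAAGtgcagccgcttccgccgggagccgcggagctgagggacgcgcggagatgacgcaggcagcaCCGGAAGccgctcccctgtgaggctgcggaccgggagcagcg
FBXW5 (chr9:136944689-136944988, minus strand): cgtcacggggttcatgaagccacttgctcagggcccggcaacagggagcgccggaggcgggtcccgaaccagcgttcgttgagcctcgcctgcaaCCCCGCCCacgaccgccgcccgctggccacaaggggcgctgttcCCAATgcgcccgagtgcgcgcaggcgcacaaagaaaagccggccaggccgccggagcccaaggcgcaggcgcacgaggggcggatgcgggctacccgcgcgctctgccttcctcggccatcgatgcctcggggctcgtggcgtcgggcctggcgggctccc
All 4 windows are rich in G and C (66.0%, 73.3%, 68.7% and 73.3%), as are the 44 member windows in general (median 67.7%, against 58.7% over 35116 windows). CCAAT was found in FBXO34, FBXW2 and FBXW5 and in 34.6% of all windows. GGGCGGGG was found in FBXW2 and FBXW5, in the second window of FBXO34 (not shown) and in 22.8% of all windows. CCGGAAG was found in FBXW2 alone of these 4 (10.3% of all windows) and CACGTG in FBXW4 alone (7.3%). TGACGTCA was found in both windows of FBXO34 and in 1.8% of all windows, and the only other tested member with it was FBXL20, which rose. TATAAA (11.5% of all windows), TTTCGCGC (0.5%) and AGATAA (10.3%) were found in 0 of the 4. No motif was found in all 4 windows. A match says only that the letters are present.

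FBXO30, an FBXO gene that rises in wasting muscle, was the remaining lower gene. Its log2 signals were 9.64, 9.62, 9.21, 8.91 and 9.47 with miR-1225-3p and 9.88, 10.14, 9.98, 9.92 and 9.69 with scrambled. All 5 miR-1225-3p arrays lay below all 5 scrambled arrays, and replicate 1 was separated from scrambled replicate 5 by a small gap. FBXO30 fell by 0.55 on the log2 scale (SE 0.17, 1.47-fold, adjusted p = 0.0321). The difference was -0.22 within slide 1 and -0.83 within slide 2. The call was lost (adjusted p 0.0525 to 0.0758) in fits that omitted any of miR-1225-3p replicates 2 to 4 or scrambled replicates 1 to 4, and with centring on the 75th percentile (adjusted p = 0.391).

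FBXL19, a leucine-rich repeat protein that binds unmethylated CpG DNA, had log2 signals of 7.47, 7.50, 7.84, 7.05 and 8.65 with miR-1225-3p and 9.03, 9.62, 8.15, 8.52 and 8.11 with scrambled. The first 4 replicates lay below every scrambled array, and replicate 5 lay among the scrambled arrays, which were themselves spread over more than a log2 unit. The log2 difference was -0.99 (SE 0.36, adjusted p = 0.0550). Without replicate 5 of miR-1225-3p it was -1.22 (adjusted p = 0.0101).

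FBXO4, which directs the degradation of phosphorylated cyclin D1, had the largest positive difference among members. Its log2 signals were 6.03, 6.26, 5.57, 5.78 and 4.20 with miR-1225-3p and 4.04, 3.51, 4.58, 3.96 and 3.02 with scrambled. Replicates 1 to 4 lay above all scrambled arrays, and replicate 5 lay among them. The signal was well above background on 3 miR-1225-3p arrays and on 1 scrambled array, so the level under scrambled was mostly not measured above background. The log2 difference was 1.75 (SE 0.41, adjusted p = 0.0164). As FBXO4 entered the test through the miR-1225-3p arrays alone, the filter favoured a positive difference, and the p is no support for a rise. With the normexp correction the difference was 0.44.

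FBXL20, a leucine-rich repeat protein known in neurons for the turnover of the presynaptic protein RIM1, was the higher gene whose groups did not overlap at all. Its log2 signals were 6.81, 7.29, 6.87, 7.12 and 6.14 with miR-1225-3p and 5.94, 5.76, 5.80, 5.96 and 5.71 with scrambled. Replicate 5 was the lowest of the miR-1225-3p arrays and still above the highest scrambled array. FBXL20 rose by 1.01 (SE 0.20, 2.02-fold, adjusted p = 0.0139), and by 0.46 with the normexp correction (adjusted p = 0.0184). The call held when any 1 array was left out, and the log2 difference was 1.23 within slide 1 and 0.85 within slide 2.

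FBXO32, known as atrogin-1 and a marker of muscle wasting, had log2 signals of 8.20, 8.52, 8.53, 8.97 and 7.46 with miR-1225-3p and 6.92, 7.58, 7.54, 7.74 and 7.40 with scrambled. Replicates 1 to 4 lay above all scrambled arrays, and replicate 5 among them. FBXO32 rose by 0.90 (SE 0.27, 1.86-fold, adjusted p = 0.0312). The adjusted p was between 0.0501 and 0.0748 when any array other than miR-1225-3p replicate 5 or scrambled replicate 4 was left out. FBXO30 and FBXO32, both linked to muscle wasting, thus moved in opposite directions in these cells.

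FBXO3, which directs the turnover of FBXL2, had 2 probes past the filter. The brighter had log2 signals of 7.98, 7.98, 7.90, 8.11 and 7.12 with miR-1225-3p and 7.03, 6.93, 7.39, 7.02 and 7.47 with scrambled. Replicates 1 to 4 lay above the scrambled arrays and replicate 5 among the lower ones. On this probe FBXO3 rose by 0.65 (SE 0.21, adjusted p = 0.0376), while the other probe gave 0.16 (SE 0.24, adjusted p = 0.614 over all probes). Their mean gave 0.40 (adjusted p = 0.0843), the normexp correction 0.22 (adjusted p = 0.394), and the adjusted p of the brighter probe was between 0.0553 and 0.0877 when any array other than miR-1225-3p replicate 5 or scrambled replicate 5 was left out. FBXO28, which also had 2 such probes, gave -0.33 and -0.47, neither called. Of the 42 probes of members past the filter, 9 were called, the FBXO34 probe among them. The share called over all kept probes was not counted, and at the gene level 35.0% of all genes were called.

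**Figure D3:**
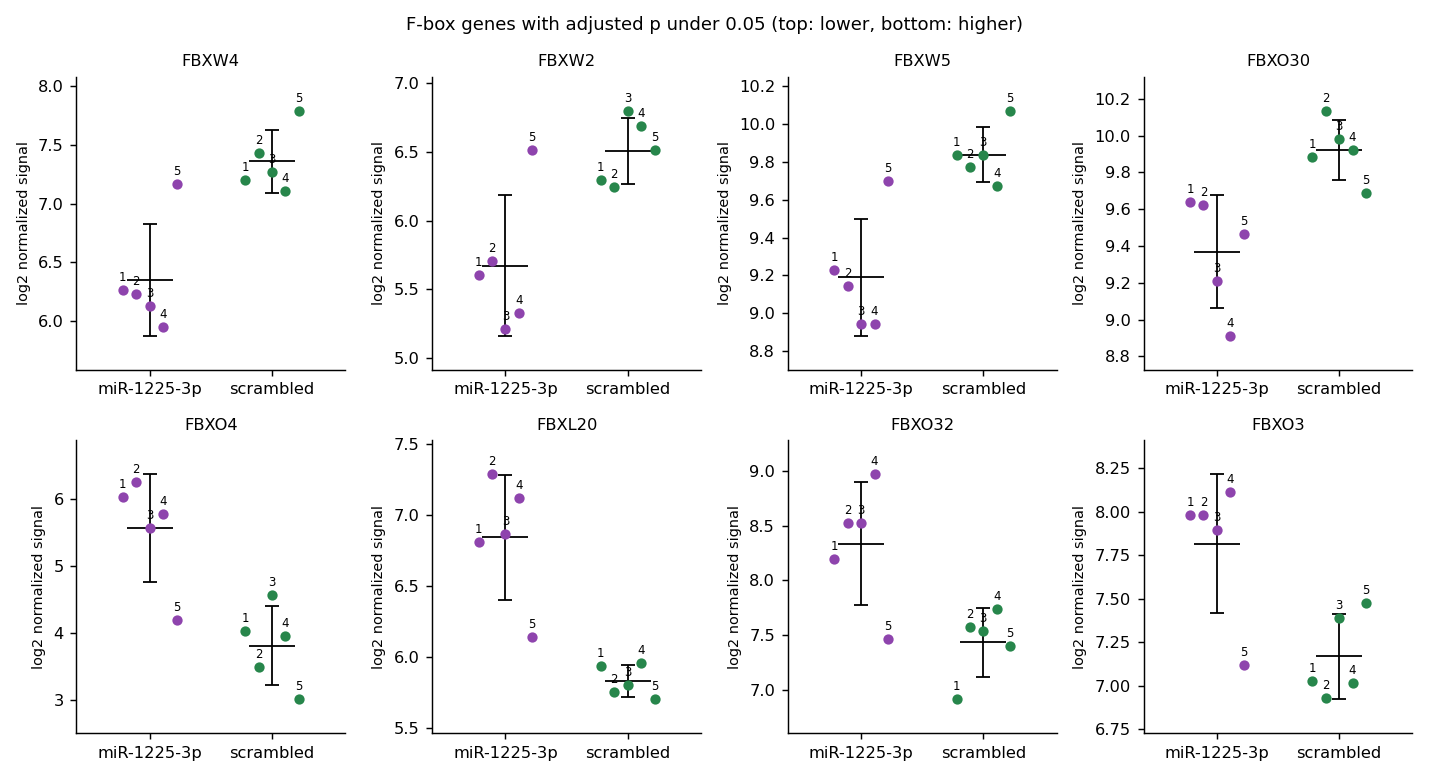
Log2 normalized signal (y axis, not starting at 0) of the 8 called F-box genes other than FBXO34 on each array, labelled by replicate number, with the mean and SD of each group (n = 5). The 4 lower genes are in the top row and the 4 higher genes in the bottom row, and replicate 5 of miR-1225-3p lies closest to the scrambled arrays in all but FBXO30.

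Several members with well-known substrates were not called. FBXO31, which like FBXO4 targets cyclin D1, had log2 signals of 6.99, 7.07, 7.19, 7.14 and 6.87 with miR-1225-3p and 6.78, 6.84, 6.71, 6.79 and 6.79 with scrambled. All miR-1225-3p arrays lay above all scrambled arrays, by little, and the log2 difference was 0.27 (SE 0.11, adjusted p = 0.0799, and 0.0194 without miR-1225-3p replicate 5). It was -0.10 without normalization between arrays. FBXO5 (EMI1, an inhibitor of the anaphase-promoting complex) had a log2 difference of 0.09 (SE 0.16, adjusted p = 0.689). FBXO7, an F-box protein with a role in mitophagy and red cell maturation, had a log2 difference of -0.26 (SE 0.13, adjusted p = 0.134), and it was 0.24 with centring on the 75th percentile. FBXO6, which recognizes N-glycans of misfolded glycoproteins, had a log2 difference of -0.58 (SE 0.42, adjusted p = 0.275), and it was the single one of 5 sugar-binding FBXO genes with a probe past the filter. FBXO16 had a log2 difference of 0.81 (SE 0.33, adjusted p = 0.0775), FBXO10 of 0.89 (SE 0.35, adjusted p = 0.0663) and FBXL18 of 0.64 (SE 0.30, adjusted p = 0.113). Of 8 tested members with cell cycle substrates, FBXO4 alone was called (12.5%, against 35.0% of all genes tested). As stated above, FBXO4 entered the test through the miR-1225-3p arrays alone.

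The number of called members rose most when replicate 5 of miR-1225-3p was left out. This array lay within the range of the scrambled arrays for 23 of the 40 members and for 65.7% of all genes. Without it, 22 members were called (13 higher, 9 lower), against 55.4% of all genes tested. All 9 members called with 10 arrays were among the 22 with the same direction. The added calls on the lower side were FBXO8, FBXO46, FBXL19 and FBXO7, and on the higher side FBXO10, FBXO16, FBXL18, FBXW7, FBXO38, FBXL13, FBXL4, FBXO31 and FBXO22. The groups did not overlap for 16 members without replicate 5, against 46.0% of all genes. Leaving out miR-1225-3p replicate 2 or 3 gave 3 calls each (12.3% and 13.0% of all genes), and leaving out miR-1225-3p replicate 4 or scrambled replicate 3 gave 5 each (20.3% and 19.5% of all genes). With the slide as a block 10 members were called (30.4% of all genes), within slide 1 there were 10 calls (25.9% of all genes), and within slide 2 there were 0 (limma, 3 at an unadjusted p under 0.05).

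**Figure D4:**
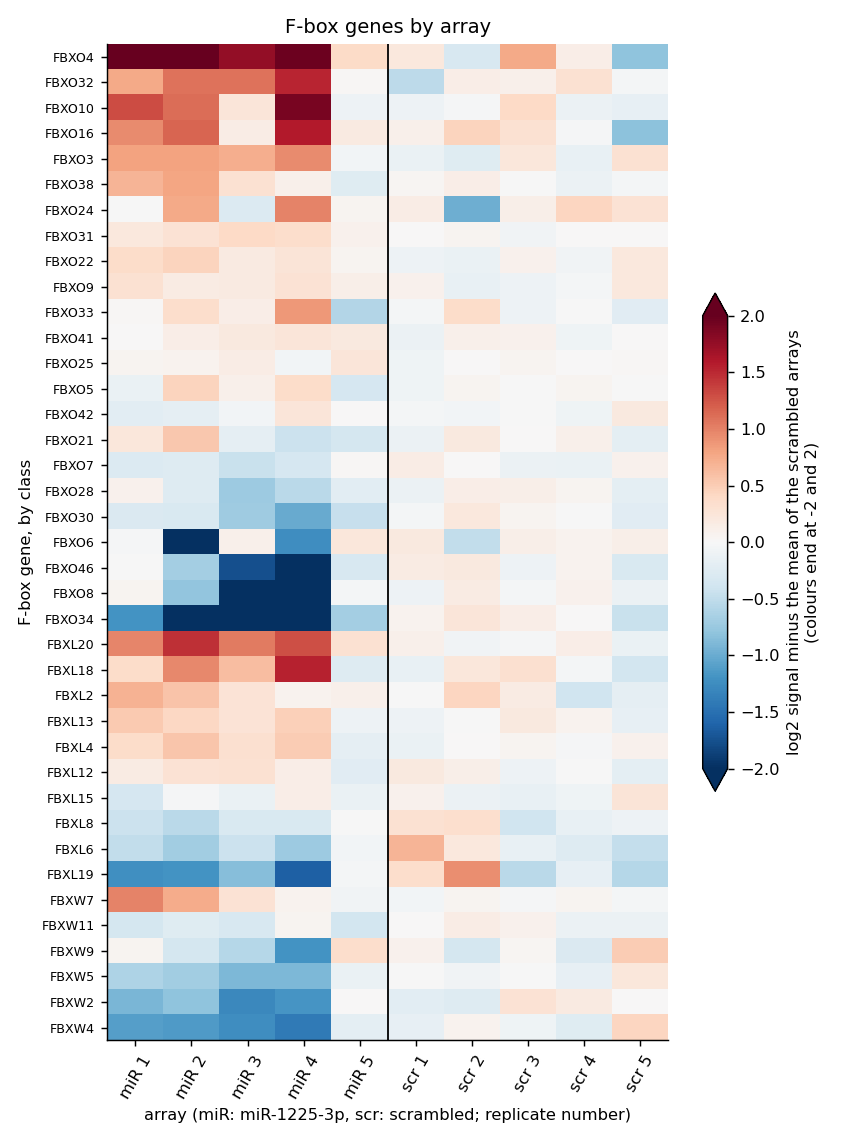
Log2 signal of 39 of the 40 tested F-box genes (rows, by class) minus its mean over the scrambled arrays, for each of the 10 arrays (columns), with colours ending at -2 and 2. The column of miR-1225-3p replicate 5 is paler than those of replicates 1 to 4 and resembles the scrambled columns.

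The partners that F-box proteins need were examined with the same test. Of 26 measured genes of the SCF core, the NEDD8 cycle and the COP9 signalosome, 5 were higher (SKP1, NAE1, DCUN1D2, COPS3 and COPS4) and 1 was lower (CDC34). This is 23.1%, against 35.0% of all genes tested. SKP1, the adaptor that every F-box protein of an SCF ligase binds, had log2 signals of 15.09, 15.14, 15.16, 15.27 and 14.60 with miR-1225-3p and 14.08, 14.25, 14.37, 14.32 and 14.31 with scrambled. No miR-1225-3p array reached down to the scrambled ones, and SKP1 rose by 0.78 on the log2 scale (SE 0.15, 1.72-fold, adjusted p = 0.0136). COPS3, a subunit of the signalosome, also had groups that did not overlap and rose by 1.02 (SE 0.21, adjusted p = 0.0139). DCUN1D2, which helps load NEDD8 on cullins, rose by 1.22 (SE 0.28, adjusted p = 0.0166), and it was 0.43 and not called with the normexp correction (adjusted p = 0.0698). NAE1, a subunit of the enzyme that activates NEDD8, rose by 0.68 (SE 0.17, adjusted p = 0.0190), with adjusted p = 0.0526 and 0.0521 without miR-1225-3p replicates 2 and 3. COPS4, another signalosome subunit, rose by 0.42 (SE 0.14, adjusted p = 0.0384), a call that held without miR-1225-3p replicate 5 and was lost without any other array (adjusted p 0.0519 to 0.0957).

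CUL1 had a log2 difference of -0.22 (SE 0.21, adjusted p = 0.428) and RBX1 of 0.35 (SE 0.14, adjusted p = 0.0746, and 0.0117 without miR-1225-3p replicate 5). CDC34, the ubiquitin-conjugating enzyme of SCF ligases, fell by 0.91 (SE 0.30, adjusted p = 0.0404), and the call was lost when any array other than miR-1225-3p replicate 1 or 5 was left out (adjusted p 0.0632 to 0.0917). UBE2M, the enzyme that passes NEDD8 to CUL1, had log2 signals of 7.056, 5.996, 11.695, 4.959 and 11.025 with miR-1225-3p, and of 11.234, 10.820, 10.859, 10.886 and 10.748 with scrambled. Replicates 1, 2 and 4 were far below the scrambled arrays while replicates 3 and 5 were at or above their level, and the log2 difference of -2.76 (SE 1.20) was not called (adjusted p = 0.0920). It was called without miR-1225-3p replicate 3 (-3.65, adjusted p = 0.0480) or replicate 5 (-3.48, adjusted p = 0.0276).

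F-box genes that carry other names gave 2 calls of 6, both lower (33.3%, against 35.0% of all genes). SKP2, which marks the cell cycle inhibitor p27 for destruction, fell by 0.70 (SE 0.24, adjusted p = 0.0439) with groups that did not overlap. The call was lost when any array other than miR-1225-3p replicate 1 or 5 was left out (adjusted p 0.0545 to 0.0986), and with the normexp correction the difference was -0.13 (adjusted p = 0.502). NCCRP1 had a log2 difference of -1.75 (SE 0.57, adjusted p = 0.0390), with signal well above background on 1 miR-1225-3p array and 3 scrambled arrays. It entered the test through the scrambled arrays alone, so the filter favoured a negative difference, and with the normexp correction the difference was -0.31 (adjusted p = 0.185). Among the sets of 9 arrays it was called only without miR-1225-3p replicate 5 (adjusted p 0.0596 to 0.0923 in the others). BTRC (beta-TrCP) had a log2 difference of 0.25 (SE 0.22, adjusted p = 0.376), and CCNF (cyclin F) had no probe past the filter. Of 14 genes of other cullin ligases, 3 were higher (CUL9, UBE2F and ELOC) and 2 lower (CUL7 and DDB1), together 35.7%. CUL7, the cullin that pairs with FBXW8, fell by 1.80 (SE 0.38, 3.47-fold, adjusted p = 0.0147), and it was -0.97 with the normexp correction and still called. Its log2 signals were 6.04, 5.82, 5.80, 5.27 and 7.71 with miR-1225-3p and 7.91, 7.71, 8.11, 7.83 and 8.07 with scrambled. CUL9 rose by 1.11 (SE 0.29, 2.16-fold, adjusted p = 0.0212), with adjusted p = 0.0561 and 0.0545 without miR-1225-3p replicates 2 and 3. The calls of UBE2F, DDB1 and ELOC, all under 2-fold, were also lost without either of these arrays, and those of DDB1 and ELOC without further arrays as well. The median log2 fold change was 0.07 over the 26 SCF genes, -0.75 over the 6 other F-box genes and 0.19 over the 14 other cullin genes.

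**Figure D5:**
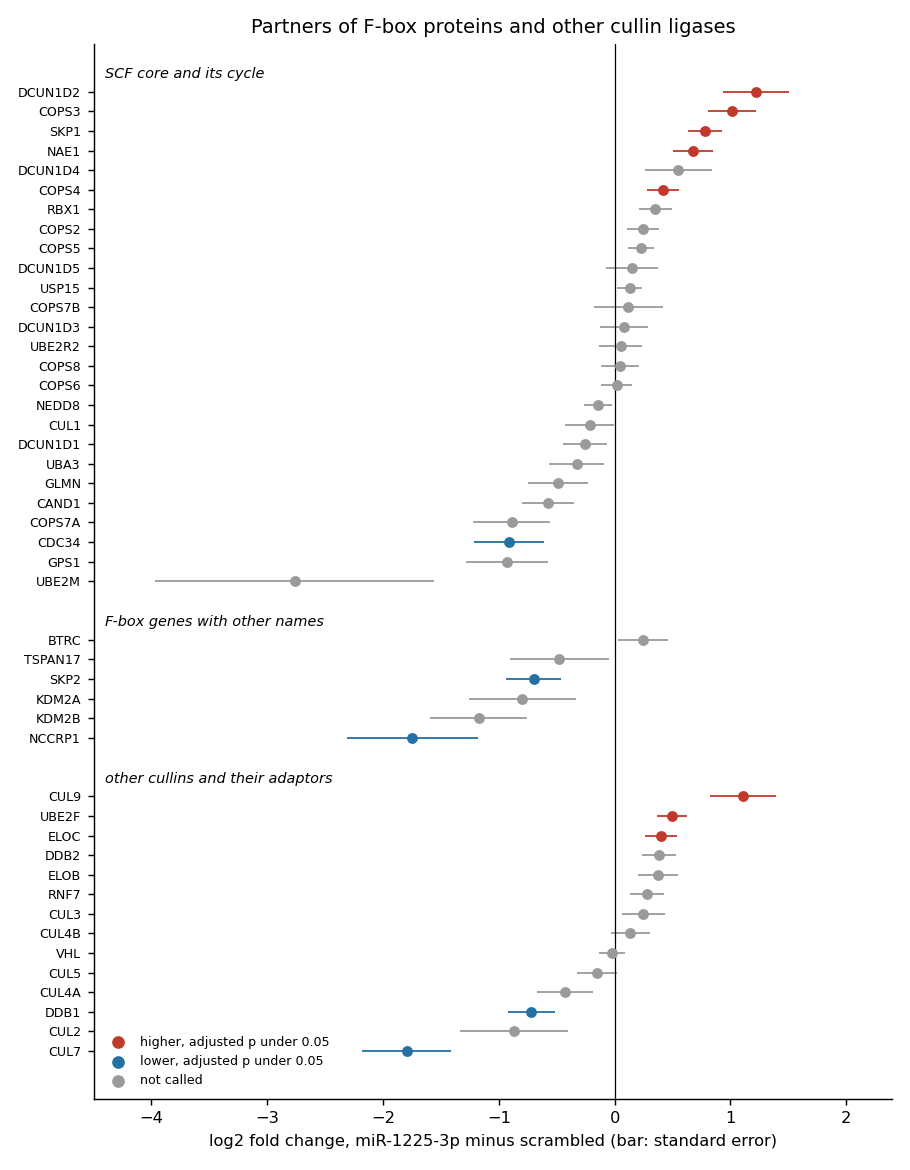
Log2 fold change (miR-1225-3p minus scrambled, x axis) of 46 genes of the SCF core, of F-box genes with other names and of other cullin ligases, with the standard error as bars (n = 5 arrays per group). UBE2M lies furthest to the left at -2.76 with the widest bar, and DCUN1D2 and CUL9 lie furthest to the right.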

How the data were processed

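The authors deposited the scanner output of 10 one-colour arrays, whose processed signal holds the intensity of each spot after background subtraction (Agilent Feature Extraction 10.7.3.1 per the file headers). They also deposited normalized log2 values. Cyclic loess (3 iterations, limma 3.58.1, R 4.3.3), the normalization the methods name, was applied here to log2 of the processed signal. Outlier spots were set missing, spots of a probe were averaged, and a probe was kept (20648 were) if 3 or more arrays of 1 group had it well above background. The probe with the highest mean stood for a gene. RefSeq accessions named 24910 of 42405 probes. Groups (5 and 5) were compared with limma and Benjamini-Hochberg adjustment over 17379 genes. The number of arrays limits the precision. The fit was tested on simulated data with independent noise for each gene and array. Such data lack the structure shared by these arrays, so they cannot show whether the adjusted p hold here. The normexp alternative used the median signal of each spot with an offset of 50, so its log2 differences of dim genes are smaller by construction. Named genes were FBXO34, members past the test and a 2-fold change, members detected through 1 group, 5 further members (FBXW7, FBXW11, FBXO5, FBXO7 and FBXO31) and SKP1, CUL1, RBX1, SKP2, BTRC and CCNF, and in the other lists genes past the test and a 2-fold change. FBXO8, FBXO46, FBXL19, FBXO10, FBXL18, UBE2M and the called genes under 2-fold were added after their values were seen. Members and lists were chosen with earlier results of these data known. FBXO11, FBXO45 and FBXL5 were not analysed here, and some genes of the lists are not reported here.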

Additional observations from a re-analysis of the deposited data

Results flagged for a closer look

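In 72 groups of 5 arrays (named genes, each group), 10 had 1 array further from the others than the 95% limit of Dixon's test allows. For unselected and independent groups chance would flag about 1 in 20, which is 3.6 here. These groups are neither, since many genes were named by their values and all share the same 10 arrays. The 10 flags therefore cannot be judged against 3.6. Of the 10, 6 were miR-1225-3p replicate 5, each lying on the side of the scrambled arrays. FBXW4 was high there (log2 signal 7.171, next 6.264) and NCCRP1 was high (6.293). FBXO3 was low (7.117, next 7.896), as were SKP1 (14.602), NAE1 (10.266) and COPS3 (11.541).

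Among the scrambled arrays, FBXO6 was low on replicate 2 (4.091), NAE1 was low on replicate 1 (9.91), CUL9 was low on replicate 5 (7.922) and UBE2M was high on replicate 1 (11.234).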

How the results depend on the processing

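FBXO34 kept its direction in all 27 alternatives (-3.40 to -1.85), and so did the 8 other called members in the 27 (FBXW4, FBXW5, FBXO30, FBXO3 and FBXO32) or 26 (FBXW2, FBXL20 and FBXO4) run for each. The main counts were 9 F-box genes, 9 F-box probes, 6 SCF genes, 2 other F-box genes, 5 other cullin genes and 6091 genes in all. They became 1, 1, 0, 0, 1 and 1266 without normalization between arrays, and 31, 30, 18, 5, 11 and 11757 with array weights. Samples with the same replicate number did not deviate together (correlations -0.402 to 0.072), and with the replicate block all counts were 0 (limma, 13 members and 7474 genes at an unadjusted p under 0.05), as they were within slide 2 (3 and 1220), where 5 arrays were left. The methods' t-test called 8 members and 4677 genes in all after adjustment. Without the filter on dim probes there were 5 F-box genes, 5 F-box probes, 0 other F-box genes, 3 other cullin genes and 3411 genes. Leaving out 1 array gave 3 to 22 F-box genes, 3 to 22 F-box probes, 3 to 13 SCF genes, 0 to 3 other F-box genes, 1 to 10 other cullin genes and 2129 to 9624 genes. Centring on the 75th percentile gave 11 SCF genes and 7147 genes in all. The other F-box genes numbered 1 with quantile normalization, trend and robust variance or the slide as a block (6146, 6301 and 5278 genes in all). They numbered 0 with normexp (5274 genes in all), with detection on all 10 arrays (4697 of 12048) or with the methods' t-test. With the probe of smallest p they numbered 4 (6915 genes in all). The median over members was 0.29 with the 75th percentile, 0.18 with quantile normalization, -0.13 without normalization, -0.0399 for probes detected on all arrays, 0.19 with array weights and 0.18 within slide 1, and it was 0.04 to 0.11 when 1 array was left out. The median over all genes was 0.16 with the 75th percentile and -0.26 without normalization, and the share of lower genes among the calls was 51.6%, against 36.2% with the 75th percentile, 40.9% with quantile normalization and 86.3% without normalization. Signs changed for uncalled genes alone. With the 75th percentile FBXW11 was 0.21 and FBXO7 0.24. Without normalization FBXO31 was -0.10 and BTRC -0.30. With array weights BTRC was -0.0752. FBXO5 was -0.0072 within slide 2 and -0.0033 without miR-1225-3p replicate 2 (range -0.0033 to 0.19). The causes were not tested. Differences of dim genes, FBXO4 above all, rest on signal near background.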
